A study of Mus musculus with 6 samples.

Results

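The hedgehog co-receptors Cdon, Boc and Gas1, the ligand antagonist Hhip and the ligand release genes Scube1, Scube2, Scube3 and Disp1 were followed in mouse NIH3T3 fibroblasts that express GGCT. These 8 genes, of 23540 named genes with a probe, were read by 15 probes, found by matching each probe's transcript accession to RefSeq. GGCT (gamma-glutamylcyclotransferase) is an enzyme of glutathione breakdown. The GGCT-OE cells carried a retroviral pCX4bsr vector with GGCT and the empty cells the control vector, and both were stable populations of the NIH3T3 line grown in 2% serum. The titles number 3 experiments, each with 1 GGCT-OE and 1 empty array, hybridised with Cy3-labelled RNA. The sources used here do not say whether the populations were pooled or cloned, whether infection was repeated, or from which species the GGCT sequence came. The submitters call the experiments independent, and all errors and p-values here describe variation among those 3.

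Hedgehog ligands are secreted proteins that carry lipid anchors. Disp1, a membrane transporter, and the secreted SCUBE proteins free them from the producing cell. On the receiving cell Cdon, Boc and Gas1 bind the ligand at the surface and present it to Ptch1, which then stops holding back Smo, so that GLI factors act on their targets. Hhip binds ligand without passing on the signal and is itself induced by the pathway, whereas in mouse embryos Cdon, Boc and Gas1 are lowered where the signal is strong. NIH3T3 cells respond to hedgehog ligands, and Gas1 was first isolated from growth-arrested NIH3T3 cells.

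Of the 8 genes, Scube2 and Cdon were called lower with GGCT, each on its brightest probe (highest mean over all arrays), and 0 genes were called higher. A second Scube2 probe, the brighter one on GGCT-OE arrays, was not called (log2 difference 0.06). A second Cdon probe was not called either. Gas1 (lower) and Disp1 (higher) missed the threshold without pairing and passed it when the experiment number was a block. Boc was dim, and its values were lower in each experiment. Hhip, Scube1 and Scube3 did not pass the background flag on any array. Tests used limma on log2 signal relative to each array's 75th percentile, over the 31110 probes whose signal passed the background flag on each of the 3 arrays in 1 group or both, and a call is an adjusted p (Benjamini-Hochberg) under 0.05.

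Of the 15 probes, 7 were well above background on all 6 arrays and were tested. They belong to Cdon, Gas1, Scube2 and Disp1. By limma 2 of the 7 were called lower and 0 higher, and at an unadjusted p under 0.05 there were 2 lower and 1 higher. Over all probes tested, 17.5% were called lower and 17.7% higher, 35.2% in all, so 2 called of 7 is no more than probes in general gave. For 4 of the 7 probes GGCT-OE and empty values were fully apart, where 49.7% of all probes tested did so. With the experiment number as a block 3 of the 7 were called lower and 2 higher, where 53.6% of all probes were called.

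**Figure D1:**
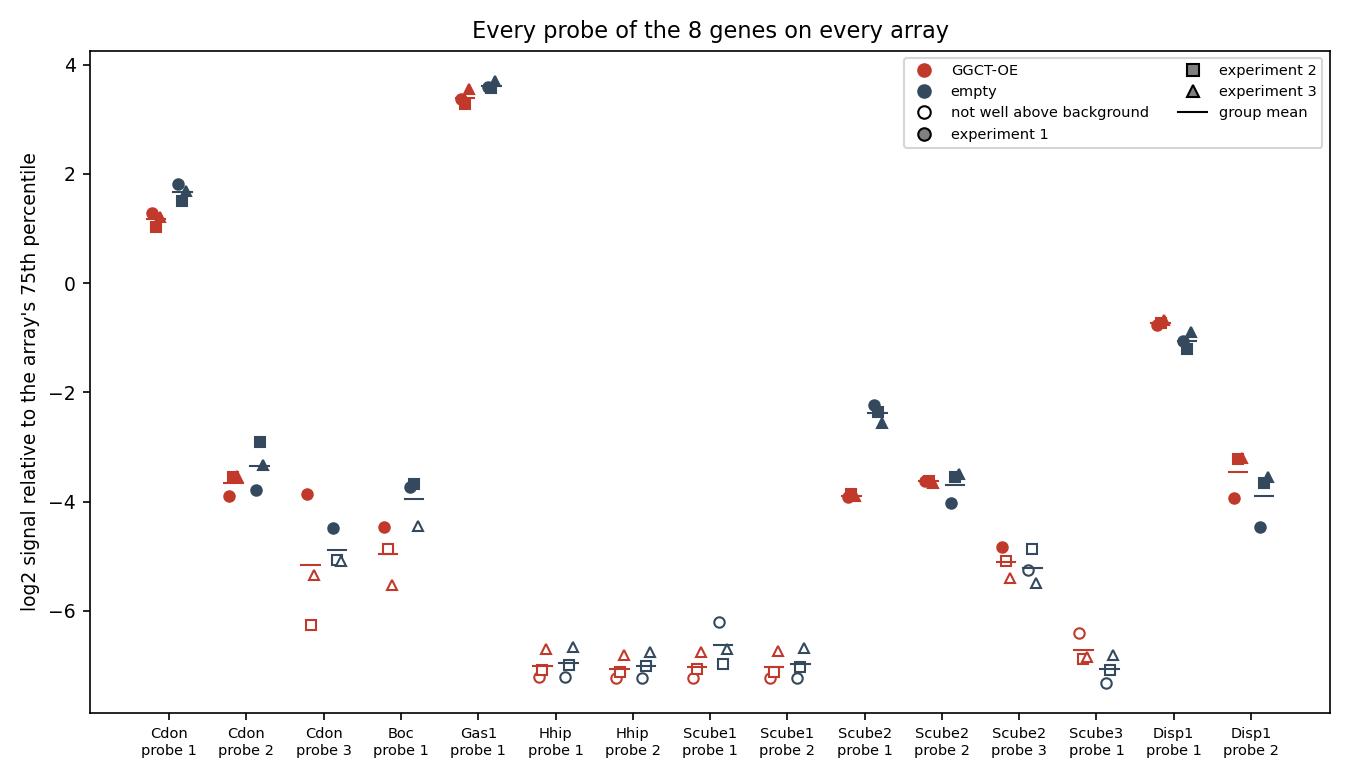
Signal of all 15 probes on the 6 arrays (y axis: log2 units from the 75th percentile of each array). Red points are GGCT-OE and dark points empty arrays, shapes mark experiments, horizontal lines are group means, and open points were not well above background. Scube2 probe 1 separates most clearly, at -3.92 to -3.87 on GGCT-OE arrays and -2.55 to -2.24 on empty arrays, while Hhip, Scube1 and Scube3 show open points on every array.

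The co-receptors come first. Cdon, an immunoglobulin-type surface protein, was measured by 3 probes of 1 transcript. Its brightest probe (A_52_P575178) stood at 1.28, 1.02 and 1.21 on the GGCT-OE arrays of experiments 1, 2 and 3, against 1.81, 1.51 and 1.69 on the empty arrays. All 3 GGCT-OE values lay below all 3 empty values, and the drop was nearly the same in each experiment, with log2 differences of -0.53, -0.49 and -0.48. The fitted log2 difference was -0.50 ± 0.12 (SE, 3 arrays against 3, 95% interval -0.79 to -0.21), a level 1.41-fold lower with GGCT (limma, adjusted p = 0.0205). Permuting the array labels exactly (2-sided) cannot go below p = 0.1 with 3 arrays a group, and that was the value here. Of all tested probes, 29.4% had a larger difference in size.

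The other Cdon probes did not pass the test. Probe A_55_P2931311 stood at -3.90, -3.55 and -3.54 on GGCT-OE arrays, against -3.78, -2.91 and -3.33 on empty arrays, and the groups overlapped. Its log2 difference of -0.32 had a 95% interval of -0.89 to 0.24 (limma, adjusted p = 0.332), which holds both 0 and the value of the brightest probe. The brightest probe differed from it in response by -0.18 on the log2 scale, with an exact permutation p of 0.7. Probe A_66_P116765 was well above background only in experiment 1, on both arrays, and was not tested. The call on Cdon rests on 1 probe. It held without GGCT-OE replicate 1, without empty replicate 2 and without both arrays of experiment 1 (adjusted p from 0.0269 to 0.0341). It was lost when either array or both arrays of experiment 2 or 3 were left out, apart from empty replicate 2, and without empty replicate 1 (adjusted p from 0.0535 to 0.171), and also with the mean of its probes (log2 difference -0.37, adjusted p = 0.205).

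Boc, the paralog of Cdon, had 1 probe (A_52_P319495), well above background on 1 of 3 GGCT-OE arrays and 2 of 3 empty arrays, and so was not in the tested set. It stood at -4.46, -4.87 and -5.53 on GGCT-OE arrays, against -3.74, -3.67 and -4.44 on empty arrays. The GGCT-OE values were all lower than the empty ones, by the narrowest of margins between GGCT-OE in experiment 1 and empty in experiment 3. Since 3 of these 6 values were not well above background, no fold is given. When all probes were tested without a filter, limma gave an adjusted p of 0.142, where 11.4% of all 56570 probes were called, and 0.0290 with the experiment number also as a block, a combination chosen after the data were seen. With the normexp background, which here adds an offset of 50 units, the log2 difference of the means was -0.29. An offset of that size by itself makes the log2 differences of dim probes smaller. Smaller values with normexp therefore do not test the background subtraction alone, here or below.

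Gas1, a surface protein anchored by a lipid, had 1 probe (A_55_P2805510), which read 4209 to 5497 units on GGCT-OE arrays and 4545 to 5579 units on empty arrays. On the log2 scale it stood at 3.37, 3.27 and 3.55 on GGCT-OE arrays, against 3.58, 3.57 and 3.70 on empty arrays. The groups did not overlap, but only just, since GGCT-OE in experiment 3 lay just below the lowest empty array. The log2 difference was -0.22 (95% interval -0.47 to 0.03, limma, adjusted p = 0.148), and -0.21, -0.29 and -0.16 by experiment. With the experiment number as a block the adjusted p was 0.0357. With the slide as a block it was 0.0962.

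Hhip, the ligand antagonist and pathway target, did not pass the background flag on any array. Its 2 probes read between 2.52 and 4.51 units over the 6 arrays, where the dimmest probes called well above background read 10.5 to 19.3 units, depending on the array. No difference between the groups can be drawn from such values.

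The release genes gave the clearest and the least uniform result. Scube2, a secreted protein that takes ligand from the cell surface, was measured by 3 probes that carry 1 accession, the only Scube2 transcript in the RefSeq table. The brightest (A_55_P2232988) read 26.8, 31.6 and 31.6 units on the GGCT-OE arrays of experiments 1 to 3, against 80.5, 83.1 and 73.1 units on the empty arrays. On the log2 scale these were -3.92, -3.87 and -3.90 on GGCT-OE arrays, against -2.24, -2.35 and -2.55 on empty arrays, with a wide gap between the groups. The log2 difference was -1.52 ± 0.10 (SE, 3 arrays against 3), a level 2.86-fold lower with GGCT (limma, adjusted p = 0.000247). The exact permutation p was 0.1, the smallest possible here, and 4.27% of tested probes had a larger difference in size.

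A second Scube2 probe (A_55_P2060429), which read 33.3 to 37.6 units on GGCT-OE arrays and 23.2 to 38.2 units on empty arrays, did not follow. It stood at -3.61, -3.62 and -3.65 on GGCT-OE arrays, against -4.03, -3.54 and -3.49 on empty arrays, and the groups overlapped. Its log2 difference was 0.06 (95% interval -0.32 to 0.44, limma, adjusted p = 0.802), an interval that does not hold the value of the brightest probe. The 2 probes differed in their response by -1.58 on the log2 scale, and by -2.10 to -1.18 in single experiments, with an exact permutation p of 0.1. The third probe (A_51_P192397) was well above background on 1 of 6 arrays, GGCT-OE in experiment 1. The files hold no probe sequences, so where each probe lies in the transcript was not analysed here. Among single probes, the call on Scube2 rests on the brightest. It held in all 23 alternatives that gave a test, 1 of which took the mean of the Scube2 probes (log2 difference -0.45). With the normexp background and its offset the log2 difference was -0.66.

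Disp1, the transporter that exports the ligand, had higher means with GGCT on both of its probes. The brightest (A_52_P377416) stood at -0.77, -0.74 and -0.68 on GGCT-OE arrays, against -1.05, -1.21 and -0.89 on empty arrays, with no overlap. The log2 difference was 0.33 (95% interval 0.07 to 0.58, limma, adjusted p = 0.0552), a level 1.25-fold higher with GGCT that missed the threshold. The second probe (A_66_P100639) stood at -3.93, -3.23 and -3.19 on GGCT-OE arrays, against -4.46, -3.66 and -3.55 on empty arrays. Its groups overlapped because experiment 1 was lower on both arrays, yet GGCT-OE was higher by 0.52, 0.44 and 0.36 in experiments 1, 2 and 3 (log2 difference 0.44, adjusted p = 0.319). With the experiment number as a block the brightest probe had an adjusted p of 0.0245 and the second one of 0.00676. With the slide as a block they had 0.0372 and 0.00345.

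Scube1 and Scube3, the relatives of Scube2, did not pass the background flag on any array. The 2 Scube1 probes, of different transcript accessions, read 2.54 to 5.17 units and the Scube3 probe 2.39 to 4.79 units.

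**Figure D2:**
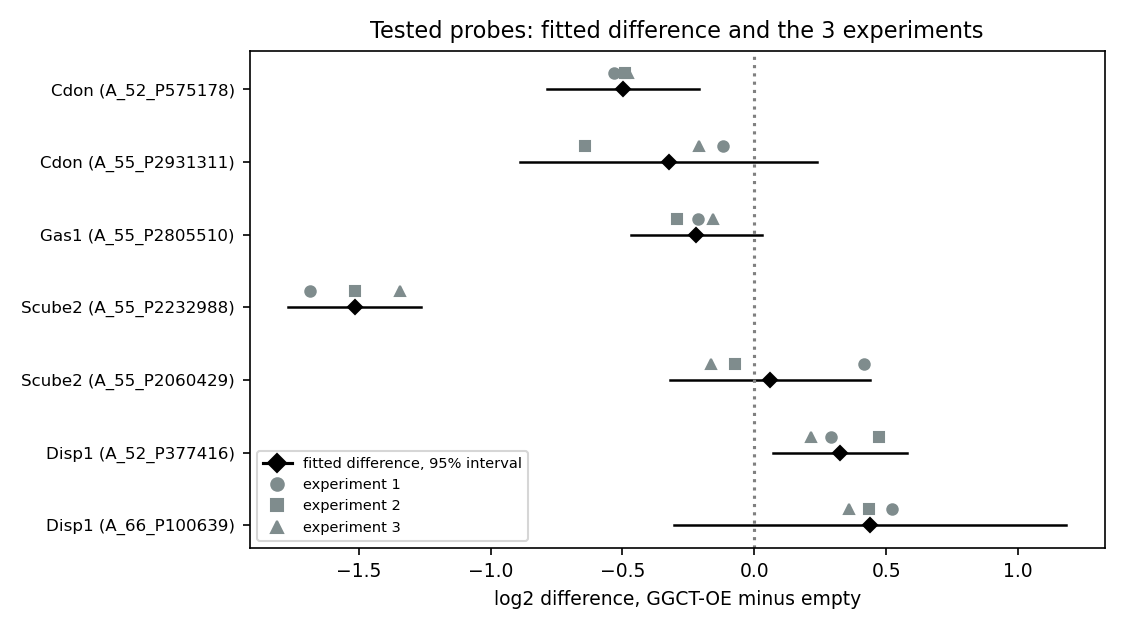
Log2 difference, GGCT-OE minus empty, of the 7 tested probes (x axis), 1 row a probe. Diamonds and lines are the fitted differences with 95% intervals, and grey points the 3 experiments. The brightest Scube2 probe lies at -1.52 and another Scube2 probe at 0.06, and both Disp1 probes lie above 0 in every experiment.

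Experiment 1 was on one slide and scan, and experiments 2 and 3 on another. The brightest probes gave log2 differences of -1.69 on slide 1 and -1.43 on slide 2 for Scube2, -0.53 and -0.48 for Cdon, -0.21 and -0.22 for Gas1, and 0.29 and 0.34 for Disp1. Direction was the same on both slides for these 4 genes. It was not for the second Scube2 probe, at 0.42 on slide 1 and -0.12 on slide 2.

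**Figure D3:**
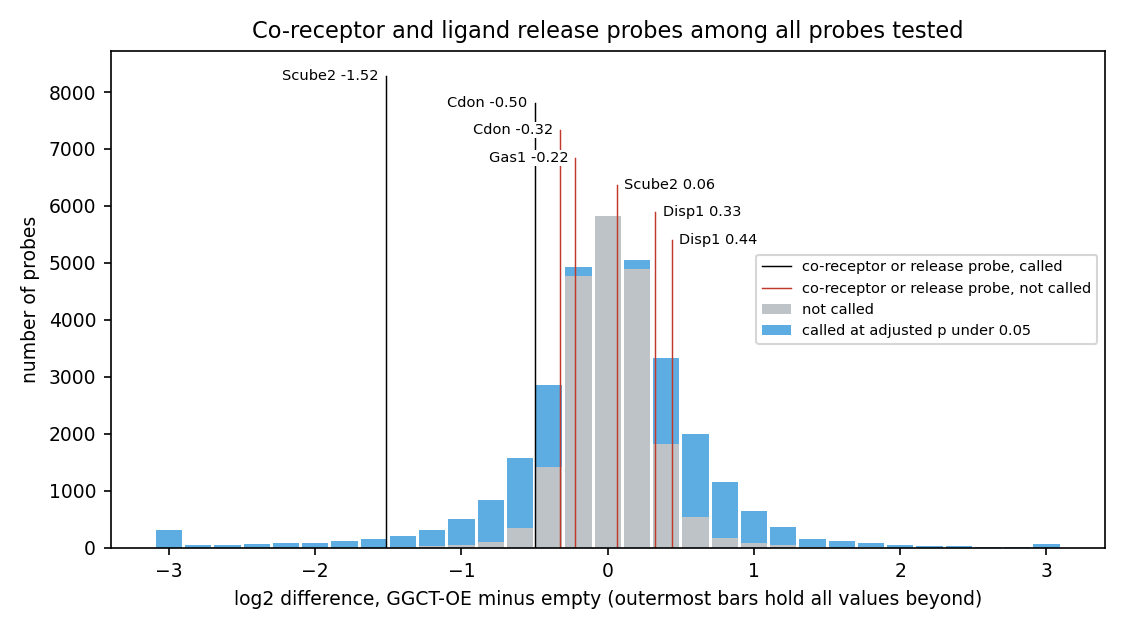
Number of probes (y axis) by log2 difference, GGCT-OE minus empty (x axis), over all 31110 tested probes, blue where called. Vertical lines mark the 7 tested probes, black where called. The brightest Scube2 probe at -1.52 lies out in the lower tail, and the other lines lie between -0.50 and 0.44, in the body of the distribution.

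The promoter of Scube2, the gene with the firmest call, is shown for its base composition. The window of 300 bases spans the start of the gene, at chr7:109865630-109865929 on the minus strand, and is given 5′ to 3′ on the strand of the gene, from RefSeq (GRCm38.p6). Capitals mark CpG dinucleotides.
Scube2: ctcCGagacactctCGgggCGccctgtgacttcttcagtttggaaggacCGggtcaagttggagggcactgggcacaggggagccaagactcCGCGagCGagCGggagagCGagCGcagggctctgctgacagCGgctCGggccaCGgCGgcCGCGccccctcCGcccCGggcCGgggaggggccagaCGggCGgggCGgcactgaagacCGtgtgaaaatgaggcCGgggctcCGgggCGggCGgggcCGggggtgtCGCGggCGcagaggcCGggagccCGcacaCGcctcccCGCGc
This window held 36 CpG, where the median over 32851 promoters was 7 and 6.23% had as many. The window listed for Cdon held 3, but it lies inside the annotated gene, downstream of its first start, so it is not printed. In the other windows (1 start each, and 2 for Disp1, with Boc not used here) the count was 17 for Gas1, 30 for Hhip, 32 for Scube1, 20 for Scube3, and 4 and 18 for Disp1. Disp1 is on the minus strand, and its window with 4 CpG lies downstream of the one with 18. The GLI consensus GACCACCCA, searched on both strands, was in none of the 8 windows of the 7 genes, that of Cdon included, and in 0.253% of all promoters. Its inner letters CCACCC were found once in Hhip and in 2 places in Scube1, in none of the others, and in 31.5% of all promoters. These matches are letters in a short window and do not show binding.

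Genes with profiles most like each brightest probe were sought by the root mean square difference between mean-centred log2 profiles over the 6 arrays, among 13238 named genes. For Scube2 they were Maoa, a monoamine oxidase (0.0586, log2 difference -1.47), and Plscr4 (0.0647, log2 difference -1.44). For Cdon they were Pccb, a subunit of propionyl-CoA carboxylase (0.0171), and the ubiquitin ligase Chfr (0.0239). Gas1 was most like Hsdl2 (0.0119) and Ndrg4 (0.0263), and Disp1 most like Zfp442 (0.0328) and Tiprl (0.0428).

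The other hedgehog genes were read from a list of 40, by each gene's brightest probe. Of these 39 had a probe, 30 were tested, 14 rose and 10 fell with GGCT, and 6 were not called. Over all named genes 17.8% were called higher and 22.2% lower, 40.0% in all. The median log2 difference was 0.20 over the 30 tested genes and -0.02 over all named genes. Shh, Gpc2, Gpc3, Gpc4 and Disp3 did not pass the background flag on any array, and Lrp2, Gpc5, Disp2 and Cdh15 passed it on too few to be tested. Gli3 was not analysed here.

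The tested ligands, Dhh and Ihh, their acyltransferase and the tested GLI factors rose on their brightest probes. Dhh, desert hedgehog, had a log2 difference of 2.12, Ihh 1.21 (well above background on 2 of 3 empty arrays), Hhat 0.82, and Gli1 and Gli2 1.61 each. A second Ihh probe did not pass the background flag on any array. Ihh passed the filter through the GGCT-OE arrays alone, so its test is not independent of that filter. Its call was lost without replicate 2 or 3, and with the normexp background (0.26), whose offset shrinks the differences of dim probes. Normexp also gave smaller log2 differences of 0.92 for Dhh and 0.72 for Gli2, both still called, and 1.37 for Gli1. Smo, the transducer, rose (0.45), while the receptor Ptch1 was not called (0.67, adjusted p = 0.0528, and 0.0473 with the experiment number as a block, and a log2 difference of 0.21 with normexp). A second, dimmer Ptch1 probe passed the background flag on 2 GGCT-OE arrays and 0 empty arrays and was not tested.

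Other surface proteins that carry or bind ligands moved in both directions. Gpc6, a glypican, stood at -4.04 ± 0.38 in GGCT-OE cells and -0.99 ± 0.18 in empty cells (SD, n = 3 each). Its log2 difference of -3.05 (limma, adjusted p = 0.000246) was larger in size than any of the co-receptors', and was -1.63 with normexp, still called. Gpc1, another glypican, rose (0.55). Cdh2, an adhesion partner of Cdon and Boc, had a log2 difference of -0.31 (adjusted p = 0.108, and 0.0196 with the experiment number as a block), and Neo1 one of -0.11.

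Of 10 ciliary and cytoplasmic regulators 5 rose and 3 fell. Iqce (0.81) and Efcab7 (0.37), which anchor the Evc complex in the cilium, rose, as did Gpr161 (0.65), the inhibitor Sufu (0.41) and Stk36 (0.45). Evc2 (-0.28), the ubiquitin ligase adaptor Spop (-0.38) and the ubiquitin ligase Mgrn1 (-0.36) fell, and Evc (0.02) and Kif7 (-0.14) were not called. Further probes of Gpr161 (0.52, adjusted p = 0.198), Sufu (-0.14), Spop (-0.14), Hhat (0.13), Evc2 (-0.24) and Efcab7 (0.13 to 0.21) were not called, while other probes of Sufu (0.47) and Iqce (0.65) were. Of 22 alternatives the call was lost in 14 for Evc2, 11 for Efcab7, 10 for Mgrn1, 8 for Spop and 6 for Stk36, and likewise in 10 for Gpc1 and 7 for Smo.

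Of 7 further genes often used as pathway targets, outside the roles above, 1 rose and 6 fell. Gli1, which rose (1.61), and Ptch1 (0.67, not called) were listed under other roles and are not among these 7. Mycn rose (1.64, and 1.05 with normexp). Ccnd1 (-0.98), Ccnd2 (-0.67), Bcl2 (-0.80), Foxf1 (-0.64) and Foxf2 (-0.80) fell. Sfrp1, a secreted Wnt inhibitor, was not well above background on any GGCT-OE array and was at least 8.98-fold lower on the processed signal (limma, adjusted p = 3.86e-05). With normexp its log2 difference was -1.54, still called but a smaller drop than that bound. Sfrp1 passed the filter through the empty arrays alone. Its test and its place among the 6 that fell are therefore not independent of that filter. Foxf1 lost its call in 7 of 22 alternatives. Of the 24 called genes of the list 18 lost the call in at least 1 alternative. Dhh, Gpc6, Gli1, Mycn and Foxf2 kept it in all 22, and Sfrp1 in the 21 that tested it.

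**Figure D4:**
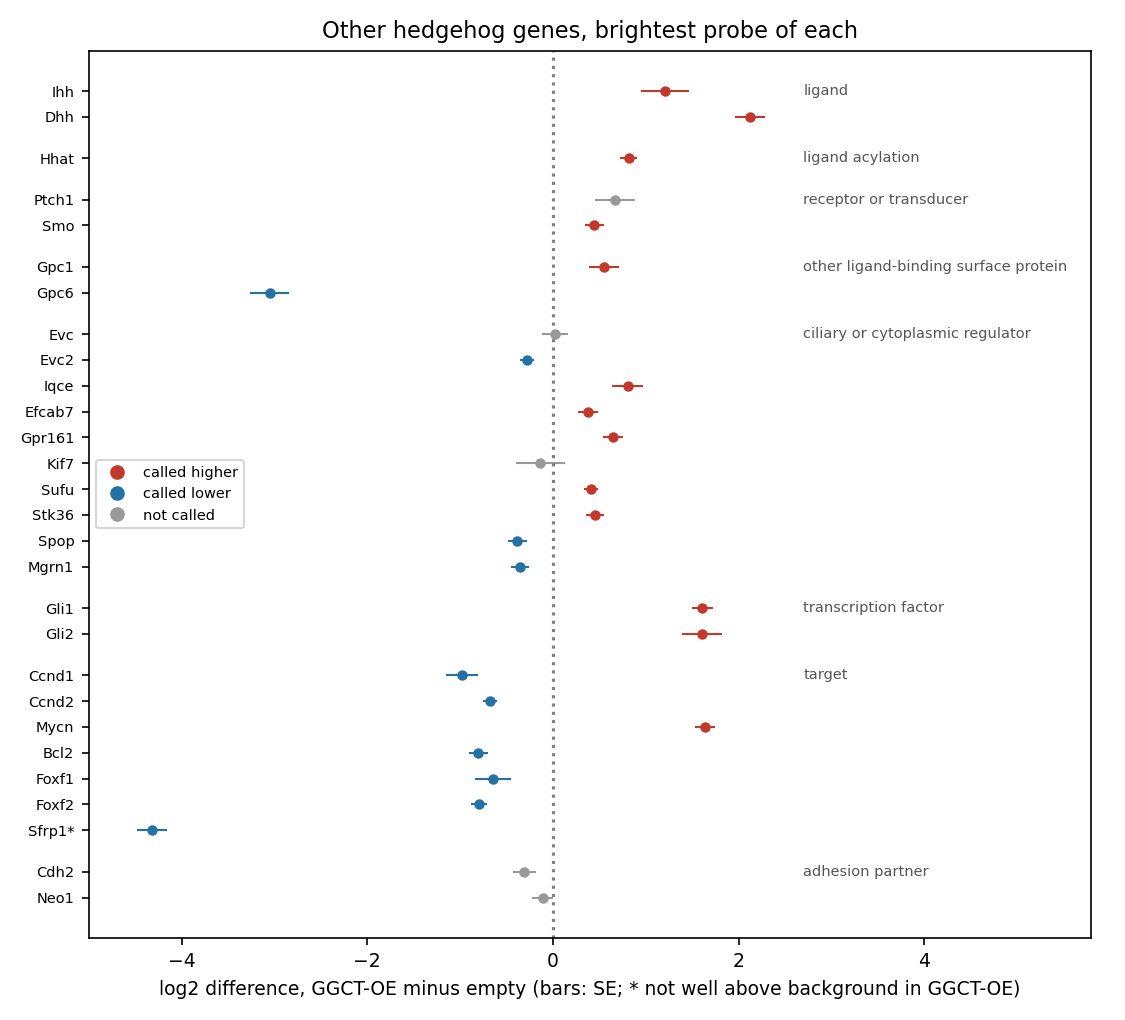
Log2 difference, GGCT-OE minus empty, of 28 tested genes of the hedgehog list (x axis, points with SE bars), grouped by role. Red points were called higher, blue lower and grey not called, and the asterisk marks Sfrp1, not well above background on GGCT-OE arrays. Ligands and GLI factors lie right of 0, and of the genes grouped as targets all but Mycn lie left of it.

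The check of the labels was Ggct itself, whose mouse probe was higher on all 3 GGCT-OE arrays (log2 difference 0.62, 1.53-fold, limma, adjusted p = 0.0107). Of all tested probes, 22% had a larger difference in size and 17.7% were called higher, so this is a weak check. Whether the Ggct probe also detects RNA made from the vector is unknown. The cell type was checked too. All 12 fibroblast markers were well above background on all 6 arrays. Their summed signal, relative to the array's 75th percentile, was 1590 to 1990 on GGCT-OE arrays and 2110 to 2560 on empty arrays. Of the 12, 6 were called lower and 1 higher, where 22.2% of all named genes were called lower and 17.8% higher. Of markers of other cells, Epcam, Cdh1, Kdr, Tek, Ptprc, Adgre1, Myog, Myf5, Ckm, Olig2 and Sox2 did not pass the background flag on any array. The summed signal of 6 skeletal muscle markers was 0.164 to 0.283 on GGCT-OE arrays and 1.52 to 2.05 on empty arrays. Of these 6 only Acta1 passed the background flag on all arrays. Only 1 of the 6 was tested, and it was called lower, so this sum does not show a change shared by muscle genes. The summed signal was 18.9 to 22.2 on GGCT-OE arrays and 13.7 to 16.3 on empty arrays for 6 epithelial markers. For 5 endothelial ones, of which only Pecam1 passed the flag on all arrays, it was 0.272 to 0.331 and 0.146 to 0.181. It was 1.69 to 1.77 on GGCT-OE arrays and 1.84 to 2.06 on empty arrays for 5 blood cell markers, and 0.562 to 0.869 and 0.527 to 0.862 for 6 neural and glial ones. Fewer cells of a kind and less RNA per cell cannot be told apart in such bulk samples, and the part of these shifts in the values of Scube2, Cdon, Gas1 and Disp1 was not tested. The share of probes that passed the background flag was 54.6% to 61.7% by array, and the 75th percentile of signal was 407.6 to 470.5 units on GGCT-OE arrays and 380.0 to 428.8 on empty arrays.

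**Figure D5:**
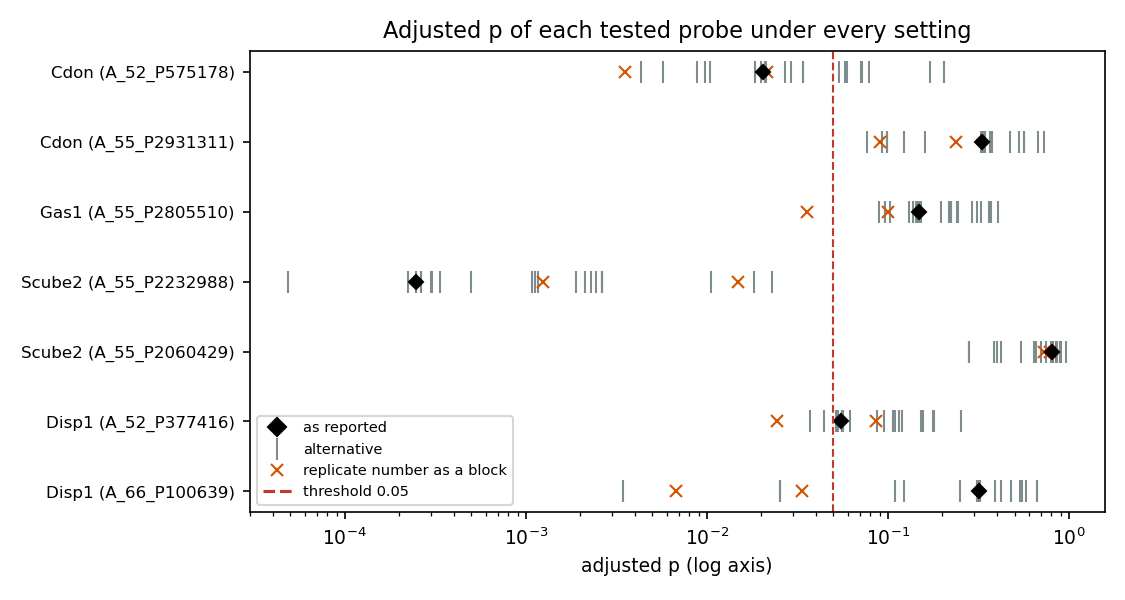
Adjusted p (x axis, log scale) of the 7 tested probes as reported (diamonds), under each alternative (grey ticks) and with the experiment number as a block (orange crosses, with and without the filter on dim probes). The dashed line is the threshold of 0.05. The brightest Scube2 probe stays left of it throughout, between 4.88e-05 and 0.0228, Cdon crosses it, and Gas1 and Disp1 lie mostly to its right.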

How the data were processed

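Per the file headers, the deposited intensity values are processed signals of 6 one-colour Agilent arrays, extracted with Agilent Feature Extraction 12.1.0.3, with background subtraction and detrending within each array. The deposited series table holds log2 values, which equalled the log2 processed intensity minus a constant per array. Its column medians lay between -3.88 and -3.70, and the reason for that constant is not stated. Titles gave the groups.

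Control spots (3671 of 62976) and 578 outlier spots were left out, and spots of a probe averaged, which left 56570 probes. Accessions were matched to RefSeq (GRCm38.p6), which named 34515 probes. The 75th percentile of log2 signal was subtracted per array. Probes well above background on all 3 arrays of a group were tested, every probe on its own, with limma 3.58.1 in R 4.3.3 (lmFit, eBayes, 2-sided, no block). A bound takes, for the dim group, on each array, whichever is higher of the probe's own signal and the dimmest signal that passed the background flag. No spot was saturated, and the number of arrays limits the precision. The procedure was tested on simulated data.

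The named genes are all 8 genes with every probe, the tested genes of the hedgehog list, and the 2 most alike genes of each brightest probe detected on all arrays. The genes and lists were chosen with earlier results of these data known. Single values of 2 tested genes of the hedgehog list are not reported here. Deviations from the group means correlated between arrays of equal number (0.716, 0.436 and 0.340 over tested probes). Arrays of unequal number on slide 2 gave 0.320 and 0.282, nearly as high as number 3, and number 1 is also slide 1, so number and slide are hard to tell apart. The numbers were taken to pair the samples because each same-number correlation was above 0.1. Arrays of unequal number on slide 2 passed that cutoff too, so it cannot decide the pairing. The main test used no block, and the block by experiment number was an alternative. The alternatives changed the filter, scaling, background, use of probes, variance model, block, slide and arrays. Slide 2 alone and leaving out both arrays of experiment 1 are the same fit. Every count of alternatives holds it under both names.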

Additional observations from a re-analysis of the deposited data

How the results depend on the processing

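Over 24 alternatives the direction held for the brightest probes of Scube2, Cdon, Gas1 and Disp1 in each run. These are not all distinct, since slide 2 alone and leaving out both arrays of experiment 1 are the same fit. On its brightest probe, or the mean of its probes in 1 run, Scube2 kept its call in the 23 that gave a test. On slide 1 alone, where no test was possible, the brightest probe had a log2 difference of -1.69. The second Scube2 probe was called in 0 of 21 tests, with log2 differences from -0.12 to 0.42. Cdon lost its call in 8 of 23, including the test of every probe without a filter (-0.50, adjusted p = 0.0787) and the mean of its probes (-0.37), where the cause was not tested; leaving out arrays gave -0.58 to -0.42 (adjusted p from 0.0269 to 0.171). With the replicate block Gas1 (-0.22) and Disp1 (0.33) passed, and the calls on Cdon and Scube2 did not change. Without the filter as well, neither Gas1 (adjusted p = 0.100) nor the brightest Disp1 probe (0.086) passed. Disp1 also passed with the slide as a block (0.33) and with array weights (0.29). Boc, which was not tested, lay between -1.25 and -0.29.

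With the replicate block 8521 probes were called higher and 8160 lower, with the slide as a block 8598 and 8163, and with array weights 8578 higher. With no filter there were 3052 and 3409, and 9 and 6 of the hedgehog list. Without single arrays or pairs of arrays 1089 to 6121 were higher and 1630 to 6059 lower, and 4 to 13 and 4 to 9 of the hedgehog list. Of the probes of the 8 genes, 1 was lower with no filter and 1 to 2 on leaving out arrays. The number higher was 2 with the replicate block and with the slide as a block, 1 with array weights, on slide 2 alone and with no filter and the replicate block, and 0 to 1 on leaving out arrays. Normexp on mean spot signals was not run, since median signals were used. Signal near background limits Boc, Hhip, Scube1 and Scube3, and to a lesser degree Scube2. The called Scube2 probe read 26.8 to 31.6 units on GGCT-OE arrays. The dimmest signals that passed the background flag there were 11.3 to 19.3 units.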

Other observations

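The chromosomal neighbours of the 8 genes, taken as 5 tested named genes on each side in RefSeq order, changed in both directions around most of them. Around Gas1 5 of 10 neighbours were lower and 0 higher by limma, with log2 differences from -7.43 to 0.40 and a median of -0.52. Around Scube2 4 were lower and 1 higher (median -0.25), and around Cdon 2 were lower and 2 higher (median 0.12). Around Boc 4 were lower and 0 higher (median -0.28), and around Disp1 1 was lower and 1 higher (median 0.15). Around the undetected Hhip 4 neighbours were lower and 1 higher, around Scube1 4 and 0, and around Scube3 1 and 2. Over all named genes 22.2% were called lower and 17.8% higher.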
